A study of Mus musculus with 19 samples.

Results

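The transcripts of 10 genes that join broken DNA ends were followed in the cortex of *Ino80* mutant mouse embryos. The genes were *Prkdc*, *Xrcc5*, *Xrcc6*, *Xrcc4*, *Lig4*, *Nhej1*, *Dclre1c*, *Shld2*, *Rif1* and *Trp53bp1*. They were chosen by name and not by a measured value from the 51912 genes that were counted, but with earlier results of these data known. All 10 were found by their Ensembl identifier. The embryos, 7 ctrl, 5 cKO-E and 7 dKO-E on a mixed C57BL/6 and 129 background, were taken at E13.5, and RNA of each neocortex made 1 library. The ctrl embryos are labelled as controls without further genotype. In cKO-E (*Emx1* Cre/+;*Ino80* fl/fl), Cre expressed from the *Emx1* locus recombines a floxed allele of *Ino80*, which encodes a chromatin remodelling enzyme. In dKO-E, the same Cre recombines floxed *Ino80* and floxed *Trp53*, which encodes p53. *Emx1* Cre acts in cortical progenitors and their neurons and astrocytes, so interneurons, microglia and blood vessels in the same tissue keep both genes.

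Non-homologous end joining (NHEJ) ligates the ends of a DNA double-strand break without a template. The Ku heterodimer, encoded by *Xrcc5* (Ku80) and *Xrcc6* (Ku70), binds the ends and recruits the kinase DNA-PKcs, encoded by *Prkdc*, to form DNA-PK. The nuclease Artemis (*Dclre1c*) trims ends, and the ligase IV complex (*Lig4*, *Xrcc4* and *Nhej1*, which encodes XLF) seals them. The chromatin reader 53BP1 (*Trp53bp1*), its effector RIF1 (*Rif1*) and the shieldin subunit SHLD2 (*Shld2*) keep ends from being resected, which steers a break toward NHEJ and away from homologous recombination. In neural development, loss of *Lig4* or *Xrcc4* in mice is known to cause death of newborn neurons, whereas loss of *Prkdc* is mainly known for immunodeficiency.

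Depth varied, with 820915 to 8095810 counts on genes in a library (median 2952788). The libraries stood close together, with correlations of log2 CPM between 0.936 and 0.989. Levels are given as CPM, counts scaled to a common library size with TMM factors over all 19 libraries, as mean ± SD over embryos. Differences are log2 fold changes from edgeR's quasi-likelihood test, with adjusted p over all genes tested, and a gene is said to rise or fall at an adjusted p under 0.05. The deposited counts covered whole gene bodies and kept strand: of 394 coding genes that lie inside another gene on the same strand, 391 were at 0 in every library (99.2%), against 211 of 786 inside a gene on the opposite strand (26.8%) and 3798 of 20588 that were not nested (18.4%). The 20 coding genes with the most counts had a median span of 672 kb, against 24 kb for the 17368 coding genes with a count, so the counts hold intronic as well as exonic RNA. Whole-gene counts do not check the *Ino80* allele, which loses only exons 2–4: *Ino80* was at 121 ± 8.69 CPM in ctrl, 166 ± 14.7 in cKO-E and 186 ± 13.7 in dKO-E. Against ctrl it rose by 0.48 on the log2 scale in cKO-E (SE 0.07, adjusted p = 7.92e-05) and by 0.62 in dKO-E (SE 0.06, adjusted p = 8.84e-07). *Trp53* was at 43.7 ± 5.18 CPM in ctrl, 39.2 ± 4.66 in cKO-E and 34.6 ± 4.94 in dKO-E, lower in dKO-E than in ctrl by a log2 difference of -0.36 (SE 0.10, adjusted p = 0.0196).

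*Prkdc* was halved or lower in both mutants, and no other gene of the 10 moved as far. In cKO-E, 5 of the 10 genes passed the test, against 17.2% of all 11660 genes tested. *Xrcc4* and *Shld2* rose, where 7.31% of all genes rose, and *Prkdc*, *Xrcc5* and *Rif1* fell, where 9.88% of all genes fell. In dKO-E, 2 of the 10 passed, against 15.5% of 11381 genes: *Prkdc* and *Trp53bp1* fell (10% of all genes fell) and none of the 10 rose (5.45% of all genes rose). By unadjusted p, 1 of the 10 was higher in dKO-E, and none rose by edgeR's likelihood-ratio test or DESeq2. Between the mutants, 2 of the 10 passed, against 15.0% of 11746 genes: *Xrcc5* and *Rif1* were higher in dKO-E (5.59% of all genes were), and none was lower (9.42% of all genes were), also by unadjusted p, edgeR's likelihood-ratio test and DESeq2. The median log2 fold change of the 10 genes was -0.06 in cKO-E, 0.04 in dKO-E and -0.02 between the mutants, beside 0.02, 0.01 and 0.02 over all genes tested. Both mutants were compared with the same 7 ctrl embryos, so their values against ctrl are not independent of each other.

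**Figure D1:**
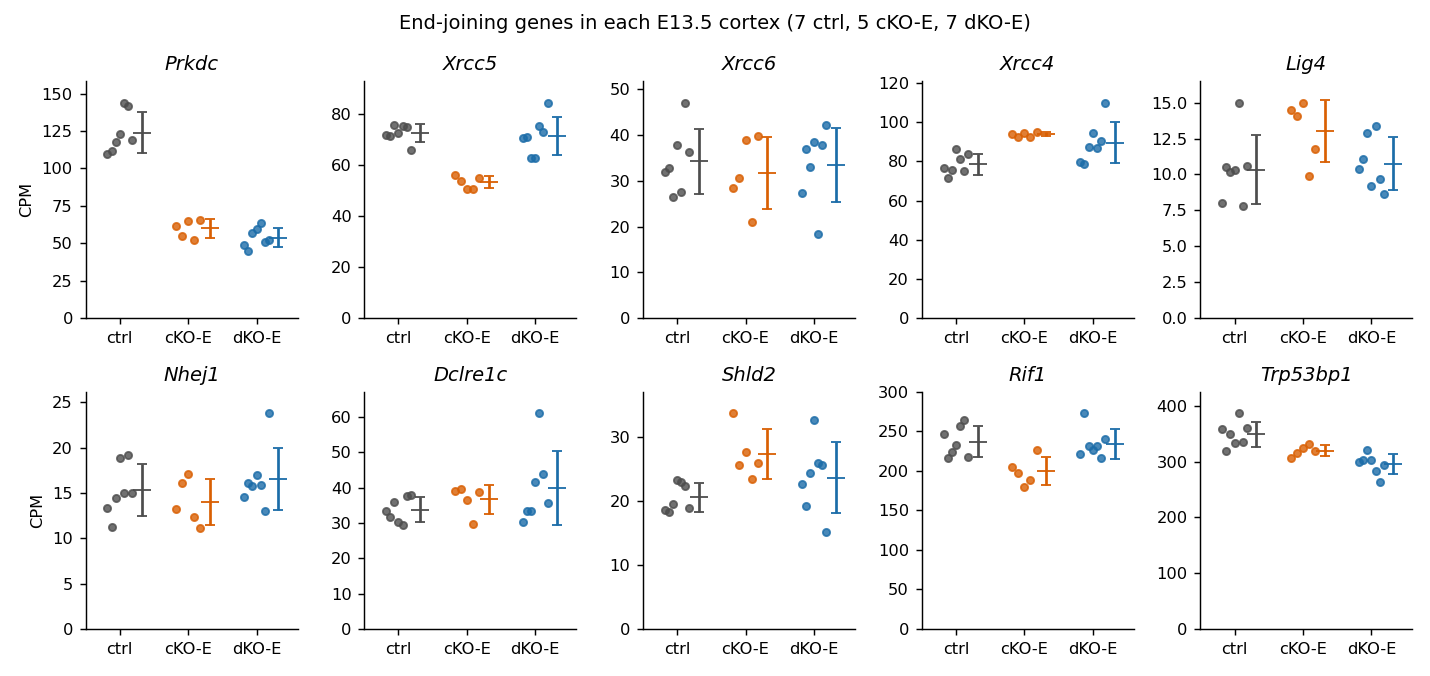
Level of each of the 10 genes in every cortex, as CPM (y axis, from 0), by genotype (x axis: 7 ctrl, 5 cKO-E, 7 dKO-E). Each point is 1 embryo, and the bar beside the points is the mean ± SD. *Prkdc* lies between 110 and 144 CPM in ctrl and at or below 65.9 CPM in every mutant embryo, and *Xrcc5* is low in cKO-E alone.

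At the stricter adjusted p of 0.001 that the study's methods use, *Prkdc* and *Xrcc5* passed in cKO-E, where 3.38% of all genes did, and *Prkdc* alone passed in dKO-E, where 2.58% did. Between the mutants none of the 10 passed it in edgeR's quasi-likelihood test, where 3.13% of all genes did; 2 had an unadjusted p under 0.05, and 1 passed 0.001 with edgeR's likelihood-ratio test and 0 with DESeq2. The values of 4 genes did not overlap between cKO-E and ctrl (*Prkdc*, *Xrcc5*, *Xrcc4* and *Shld2*), which was so for 8.77% of all genes tested. Only *Prkdc* did not overlap between dKO-E and ctrl (4.45% of all genes), and only *Xrcc5* did not overlap between dKO-E and cKO-E (7.09% of all genes).

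*Prkdc* (ENSMUSG00000022672.8), the catalytic subunit of DNA-PK, lies on the plus strand at chr16:15637866-15842235 of GRCm38, spans 204.4 kb and has 13187 bp of exons. In ctrl the lowest embryo was at 110 CPM, the median at 119 and the highest at 144. The 5 cKO-E embryos were at 61.7, 55.2, 64.9, 51.9 and 65.9 CPM. In dKO-E the lowest was at 44.8 CPM, the median at 51.9 and the highest at 63.6. Every one of the 12 mutant embryos was therefore below every ctrl embryo, and the mutant ranges overlapped each other.

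*Prkdc* averaged 124 ± 13.7 CPM (SD) over the 7 ctrl embryos, 59.9 ± 6.13 over the 5 of cKO-E and 53.7 ± 6.46 over the 7 of dKO-E. The log2 fold change in cKO-E was -1.01 (SE 0.08, 95% interval -1.19 to -0.84, adjusted p = 7.19e-07), a change of -50.5%, with an interval from -56.3% to -44.0%. Ordered by p, *Prkdc* ranked at 16 of 11660 genes in this comparison, and 43 genes had a lower log2 fold change. In dKO-E the log2 fold change was -1.21 (SE 0.08, 95% interval -1.38 to -1.04, adjusted p = 1.07e-08), a change of -56.8%, with an interval from -61.7% to -51.3%. Here *Prkdc* ranked at 6 of 11381 genes by p, and 13 genes had a lower log2 fold change. The difference between dKO-E and cKO-E was -0.18 (SE 0.09, 95% interval -0.38 to 0.01, adjusted p = 0.209), so the loss of *Prkdc* RNA was not shown to differ between the mutants. The fall held within sequencing batch 1, at -0.95 in cKO-E and -1.14 in dKO-E, and within sequencing batch 2, at -1.13 and -1.40. With sex as a covariate, the difference between the mutants was -0.29 and passed the test (adjusted p = 0.0298). Sex was uneven between them, with 4 females and 1 male in cKO-E and 2 females and 5 males in dKO-E.

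The gene that faces *Prkdc* was compared with it, a choice made after its values were seen. *Mcm4*, a subunit of the replicative helicase, lies on the minus strand at chr16:15623897-15637400 and its start is 465 bp from that of *Prkdc*, with no gene between them. *Mcm4* was at 80.0 ± 13.6 CPM in ctrl, 79.3 ± 8.28 in cKO-E and 87.6 ± 8.69 in dKO-E. Against ctrl, *Mcm4* stood at -0.00 on the log2 scale in cKO-E (SE 0.11, adjusted p = 0.993) and at 0.14 in dKO-E (SE 0.09, adjusted p = 0.356). Within each embryo, the ratio of *Prkdc* to *Mcm4* CPM was between 1.27 and 1.79 in ctrl, between 0.583 and 0.962 in cKO-E, and between 0.44 and 0.718 in dKO-E. The mean log2 ratio differed from that in ctrl by -1.05 in cKO-E and by -1.35 in dKO-E, and between the mutants by -0.30. These ratios are a description with no test, since *Mcm4* was picked with its values known and *Prkdc* alone already separated the mutants from ctrl.

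The other genes around *Prkdc* moved less. *Ube2v2*, 42092 bp beyond the start of *Prkdc*, stood at -0.25 on the log2 scale in cKO-E (adjusted p = 0.100) and fell by 0.31 on the log2 scale in dKO-E (adjusted p = 0.0296). *Spidr*, 46988 bp beyond its end, fell by 0.36 on the log2 scale in cKO-E (adjusted p = 0.0185) and stood at -0.19 in dKO-E (adjusted p = 0.164). *Mzt2*, 6205 bp beyond its end, was at -0.17 (adjusted p = 0.682) and 0.32 (adjusted p = 0.395).

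Over all 19 libraries, the 5 genes whose log2(CPM + 1) had the highest Pearson correlation with that of *Prkdc*, among 12047 genes, were *Map3k4*, *Uba3* and *Zfp292* (each 0.96), and *Zdhhc17* and *Rims2* (each 0.95). All 5 had lower means in both mutants than in ctrl: *Uba3*, the catalytic subunit of the NEDD8-activating enzyme, was at 87.7 ± 8.73 CPM in ctrl, 42.2 ± 5.32 in cKO-E and 36.3 ± 5.26 in dKO-E. *Rims2*, a presynaptic scaffold, was at 455 ± 36.6, 260 ± 29.4 and 228 ± 15.9 CPM. These correlations are a description over libraries that share their genotype groups, and no p is given.

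**Figure D2:**
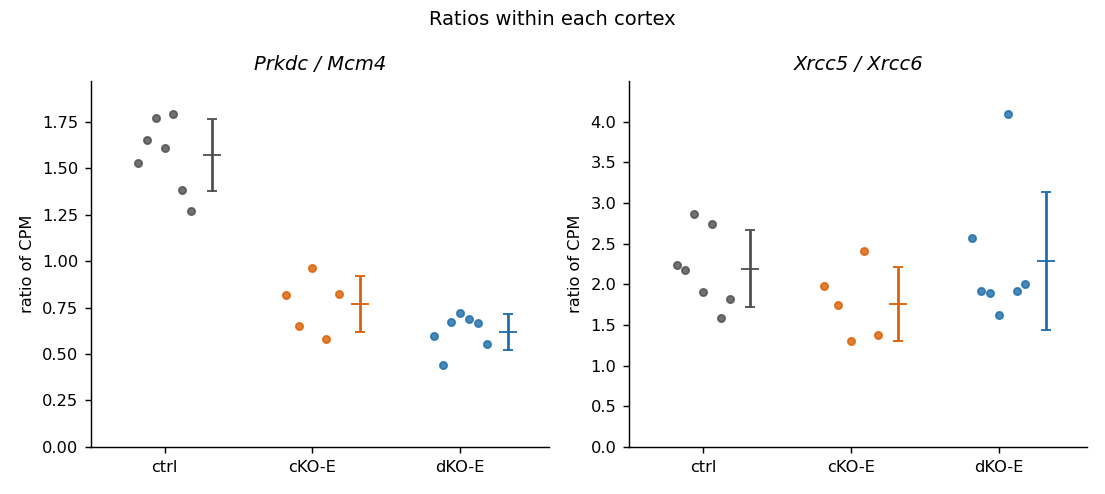
Ratio of CPM within each cortex (y axis, from 0) for *Prkdc* over its head-to-head neighbour *Mcm4* (left) and for the Ku subunits *Xrcc5* over *Xrcc6* (right), by genotype (7 ctrl, 5 cKO-E, 7 dKO-E). Points are embryos and bars are mean ± SD. The *Prkdc* to *Mcm4* ratio is at least 1.27 in ctrl and at most 0.962 in any mutant, whereas the *Xrcc5* to *Xrcc6* ratios overlap in all groups.

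Of the Ku subunits, *Xrcc5* fell in cKO-E and not detectably in dKO-E. *Xrcc5* (ENSMUSG00000026187.8) lies on the plus strand at chr1:72307421-72394952 and encodes Ku80, through which Ku recruits DNA-PKcs. In ctrl the lowest embryo was at 65.7 CPM, the median at 72.3 and the highest at 75.7. The 5 cKO-E embryos were at 56.1, 53.5, 50.7, 50.7 and 54.7 CPM, all below every ctrl embryo. In dKO-E the lowest was at 62.5 CPM, the median at 70.8 and the highest at 84.3, which spans the ctrl values and lies wholly above those of cKO-E.

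*Xrcc5* averaged 72.4 ± 3.43 CPM (SD) over the 7 ctrl embryos, 53.2 ± 2.43 over the 5 of cKO-E and 71.2 ± 7.55 over the 7 of dKO-E. The log2 fold change in cKO-E was -0.44 (SE 0.06, 95% interval -0.57 to -0.30, adjusted p = 0.000144), a change of -26.1%. In dKO-E it was -0.07 (SE 0.07, 95% interval -0.20 to 0.07, adjusted p = 0.554). *Xrcc5* in dKO-E exceeded that in cKO-E by 0.38 on the log2 scale (SE 0.08, 95% interval 0.21 to 0.55, adjusted p = 0.00332). Within batches the fall in cKO-E was -0.45 (batch 1, adjusted p = 0.00176) and -0.42 (batch 2, adjusted p = 0.0987), and the difference between the mutants was 0.31 (batch 1, adjusted p = 0.0643) and 0.51 (batch 2, adjusted p = 0.113).

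*Xrcc6* (ENSMUSG00000022471.13, plus strand, chr15:81987835-82040085) encodes Ku70, the partner subunit. In ctrl it was between 26.4 and 47.1 CPM with a median of 32.8. Those of cKO-E were at 28.4, 30.7, 39.0, 21.0 and 39.9 CPM, and the dKO-E embryos were between 18.4 and 42.2 CPM with a median of 36.9, so the 3 groups overlapped. The log2 fold changes were -0.04 (95% interval -0.35 to 0.27, adjusted p = 0.900) in cKO-E and -0.01 (95% interval -0.30 to 0.28, adjusted p = 0.978) in dKO-E. A fall as large as that of *Prkdc* lies outside both intervals. In cKO-E the interval for *Xrcc6* does not reach the -0.44 of *Xrcc5*, but the ratio of *Xrcc5* to *Xrcc6* within embryos, 2.19 ± 0.475 in ctrl and 1.76 ± 0.457 in cKO-E, was not shown to differ (log2 difference -0.32, two-sided exact permutation test, p = 0.13, adjusted p = 0.288 over 3 tests of this ratio). The *Xrcc6* gene shares 41340 bp with *Desi1* on the opposite strand.

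Of the genes of end trimming and ligation, *Xrcc4* rose in cKO-E, and *Lig4*, *Nhej1* and *Dclre1c* did not pass the test in either mutant. *Xrcc4* (ENSMUSG00000021615.13, minus strand, chr13:89774027-90089608) encodes the scaffold that stabilises ligase IV. In ctrl the lowest embryo was at 71.4 CPM, the median at 76.4 and the highest at 86.5. The 5 cKO-E embryos were at 94.1, 92.7, 94.5, 92.7 and 94.9 CPM, all above every ctrl embryo and close together (SD 1.04 CPM). Their coefficient of variation was 1.11%, where counting error at the median depth alone gives 5.97%. The closeness is therefore no measure of how alike the embryos were. In dKO-E the lowest was at 78.7 CPM, the median at 87.5 and the highest at 110.

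The mean of *Xrcc4* rose from 78.6 ± 5.42 CPM in ctrl to 93.8 ± 1.04 in cKO-E, by 0.26 on the log2 scale (SE 0.06, 95% interval 0.13 to 0.39, adjusted p = 0.0065). At 89.7 ± 10.6 CPM, dKO-E stood at 0.17 on that scale (SE 0.07, adjusted p = 0.118), and the difference between the mutants was -0.09 (adjusted p = 0.502), so the rise was not shown to be particular to cKO-E. Within batches the value in cKO-E was 0.27 (batch 1, adjusted p = 0.0399) and 0.24 (batch 2, adjusted p = 0.299). With litter as a block it was 0.23 (adjusted p = 0.0674). Every value of cKO-E against ctrl with this block rests on litters 4, 5 and 7, the only ones with embryos of both.

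*Lig4* (ENSMUSG00000049717.9, minus strand, chr8:9969049-9977686), the ligase itself, was the lowest gene of the 10, with between 8 and 105 counts per library. In ctrl it was between 7.78 and 15.0 CPM with a median of 10.3, and the 5 cKO-E embryos were at 14.5, 14.1, 15.0, 9.88 and 11.8 CPM. The log2 fold change in cKO-E was 0.41 (SE 0.16, 95% interval 0.07 to 0.76, adjusted p = 0.0939), which missed the threshold although the value was larger than that of *Xrcc4*. With edgeR's likelihood-ratio test it passed at 0.43 (adjusted p = 0.0439), and without the ctrl embryo F, at 15.0 CPM, it passed at 0.49 (adjusted p = 0.0382). It was 0.56 within batch 1 (adjusted p = 0.0421), 0.06 within batch 2 (adjusted p = 0.967) and 0.38 with litter as a block (adjusted p = 0.238). In dKO-E *Lig4* was between 8.65 and 13.4 CPM, or 0.10 on the log2 scale against ctrl (95% interval -0.22 to 0.41, adjusted p = 0.723).

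*Nhej1* (ENSMUSG00000026162.7, minus strand, chr1:74967139-75125200) encodes XLF, which aligns ends for ligation with XRCC4. It was between 11.3 and 19.2 CPM in ctrl, between 11.1 and 17.1 in cKO-E and between 13.0 and 23.8 in dKO-E. The log2 fold changes were -0.09 (95% interval -0.43 to 0.26, adjusted p = 0.867) in cKO-E and 0.09 (95% interval -0.20 to 0.37, adjusted p = 0.729) in dKO-E. *Dclre1c* (ENSMUSG00000026648.18, plus strand, chr2:3424131-3464130) encodes Artemis, the nuclease that DNA-PKcs activates. It was between 29.4 and 37.9 CPM in ctrl, at 39.0, 39.7, 36.5, 29.7 and 38.8 CPM in cKO-E, and between 30.2 and 61.0 in dKO-E. Its log2 fold changes were 0.16 (95% interval -0.03 to 0.36, adjusted p = 0.251) and 0.19 (95% interval -0.07 to 0.45, adjusted p = 0.324). For both genes the 3 groups overlapped, and changes within these intervals remain possible. The embryos of dKO-E varied in *Dclre1c* by a coefficient of variation of 26.4%, where counting error at the median depth gives 9.21%. Counting error is larger in shallower libraries, where the count went down to 33. The highest value, 61.0 CPM, was that of embryo E, the only library of sequencing batch 3. The other dKO-E embryos were between 30.2 and 43.8 CPM.

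**Figure D3:**
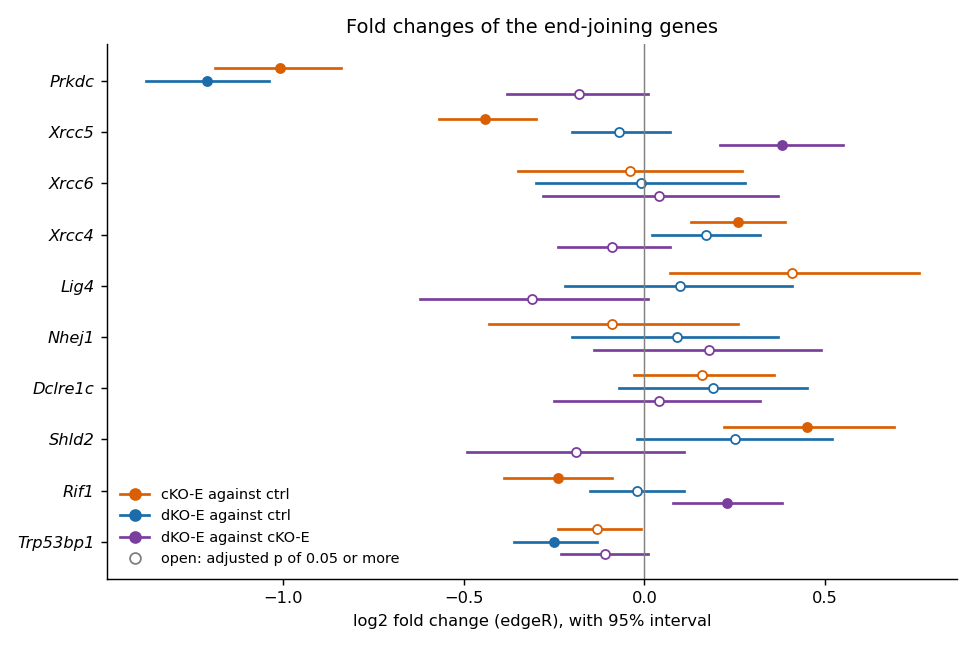
Log2 fold change of each gene (x axis) with its 95% interval, from edgeR's quasi-likelihood test, for cKO-E against ctrl (orange), dKO-E against ctrl (blue) and dKO-E against cKO-E (purple). Filled points have an adjusted p under 0.05. *Prkdc* stands at -1.01 and -1.21 against ctrl, *Xrcc5* falls in cKO-E and is higher in dKO-E than cKO-E, and the remaining points lie between -0.31 and 0.45.

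The 53BP1 arm held 1 gene that rose and 1 that fell in cKO-E, and a different one that fell in dKO-E. *Shld2* (ENSMUSG00000041471.8, minus strand, chr14:34237033-34310493) encodes the shieldin subunit that binds single-stranded DNA. In ctrl the lowest embryo was at 18.2 CPM, the median at 19.6 and the highest at 23.2. In cKO-E the 5 embryos were at 33.7, 25.6, 27.7, 23.5 and 26.0 CPM, just above the ctrl range in the lowest of them. In dKO-E the lowest was at 15.1 CPM, the median at 24.4 and the highest at 32.7, on both sides of ctrl. The mean of *Shld2* rose from 20.5 ± 2.20 CPM in ctrl to 27.3 ± 3.87 in cKO-E, by 0.45 on the log2 scale (SE 0.11, 95% interval 0.22 to 0.69, adjusted p = 0.00962). It was 0.54 within batch 1 (adjusted p = 0.0200) and 0.24 within batch 2 (adjusted p = 0.604), and 0.32 with litter as a block (adjusted p = 0.112). In dKO-E it was 0.25 (SE 0.13, adjusted p = 0.204), and the difference between the mutants was -0.19 (adjusted p = 0.433).

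*Rif1* (ENSMUSG00000036202.15, plus strand, chr2:52072832-52122383), which acts downstream of phosphorylated 53BP1, had a small difference in cKO-E. In ctrl the lowest embryo was at 216 CPM, the median at 233 and the highest at 265. The 5 cKO-E embryos were at 205, 197, 180, 189 and 227 CPM, 4 of them below every ctrl embryo. In dKO-E the lowest was at 216 CPM, the median at 232 and the highest at 273, a range much like that of ctrl. The log2 fold change in cKO-E was -0.24 (SE 0.07, 95% interval -0.39 to -0.09, adjusted p = 0.0269), a change of -15.3%, and that in dKO-E was -0.02 (95% interval -0.15 to 0.11, adjusted p = 0.855). *Rif1* in dKO-E exceeded that in cKO-E by 0.23 on the log2 scale (SE 0.07, adjusted p = 0.0378). The fall in cKO-E passed in 8 of 12 fits that left out 1 embryo. The call was lost without ctrl embryo A (adjusted p = 0.0532) or cKO-E embryo B (0.0602), C (0.0873) or D (0.0514). Over all 12 fits the log2 fold change stayed between -0.29 and -0.20. It was -0.26 within batch 1 (adjusted p = 0.0255), -0.22 within batch 2 (adjusted p = 0.331) and -0.24 with litter as a block (adjusted p = 0.0978). The difference between the mutants was 0.30 within batch 1 (adjusted p = 0.0661) and 0.08 within batch 2 (adjusted p = 0.871). It also missed the threshold without any 1 of cKO-E embryos A (adjusted p = 0.0600), B (0.0833), C (0.129) and D (0.0804) or dKO-E embryos B (0.0798), C (0.0534) and G (0.0545), while the log2 difference stayed between 0.18 and 0.28 over all embryos left out in turn.

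*Trp53bp1* (ENSMUSG00000043909.16, minus strand, chr2:121193281-121271407), the chromatin reader at the head of this arm, was the most abundant of the 10 by CPM and fell in dKO-E. In ctrl the lowest embryo was at 320 CPM, the median at 350 and the highest at 387. In cKO-E the 5 embryos were at 307, 315, 325, 332 and 320 CPM. In dKO-E the lowest was at 263 CPM, the median at 300 and the highest at 321, with 6 of 7 embryos below every ctrl embryo. The log2 fold change in dKO-E was -0.25 (SE 0.06, 95% interval -0.36 to -0.13, adjusted p = 0.0051), a change of -15.7%. In cKO-E it was -0.13 (SE 0.06, 95% interval -0.24 to -0.01, adjusted p = 0.137), and the difference between the mutants was -0.11 (adjusted p = 0.236), so the fall was not shown to be particular to dKO-E.

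*Trp53bp1* in dKO-E stood at -0.16 on the log2 scale within batch 1 (adjusted p = 0.126) and -0.38 within batch 2 (adjusted p = 0.0512). With litter as a block it was -0.15 (adjusted p = 0.385), a value that rests on litter 1 alone, the only litter with both ctrl and dKO-E embryos. *Trp53bp1* lies 1.716 Mb from *Ino80* on chromosome 2. Of 81 genes tested within 5 Mb of *Ino80*, 5 rose and 9 fell in dKO-E (17.3%, beside 15.5% of all genes), with a median log2 fold change of 0.00. In cKO-E, 5 of 82 rose and 9 fell (17.1%, beside 17.2%). Part of *Trp53bp1*, 5490 bp, is shared with *Tubgcp4* on the opposite strand.

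Levels between genes were compared per length in the 7 ctrl embryos, in 2 ways because the counts cover introns. Per kb of exons, *Xrcc5* was highest at 28.3 ± 1.34 CPM per kb, followed by *Trp53bp1* (24.7 ± 1.57), *Rif1* (22.6 ± 1.86), *Xrcc4* (18.7 ± 1.29), *Nhej1* (13.7 ± 2.54), *Prkdc* (9.40 ± 1.04), *Xrcc6* (7.65 ± 1.57), *Dclre1c* (3.62 ± 0.371), *Shld2* (3.59 ± 0.384) and *Lig4* (1.99 ± 0.459). Neighbours in this order whose means ± SD overlap are *Trp53bp1* and *Rif1*, *Prkdc* and *Xrcc6*, and *Dclre1c* and *Shld2*. Per kb of gene body, *Rif1* (4.79 ± 0.393) and *Trp53bp1* (4.47 ± 0.284) were highest and overlapped. *Lig4* followed at 1.20 ± 0.276, with little intron, and overlapped *Dclre1c* (0.843 ± 0.0865). *Dclre1c*, *Xrcc5* (0.827 ± 0.0392), *Xrcc6* (0.656 ± 0.135) and *Prkdc* (0.606 ± 0.0671) each overlapped the next. *Shld2* (0.280 ± 0.0299) and *Xrcc4* (0.249 ± 0.0172) overlapped each other, and *Nhej1* was lowest at 0.0971 ± 0.0180. Only *Trp53bp1* and *Rif1* were among the 3 highest by both measures, so the order of the other genes depends on how much intronic RNA the counts hold.

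**Figure D4:**
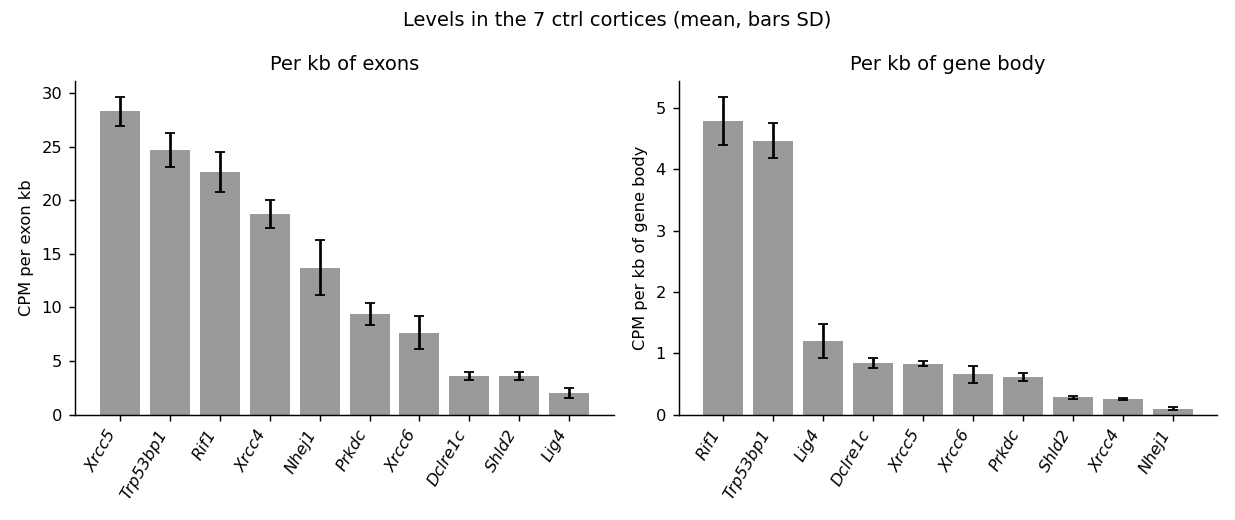
Mean level of each gene in the 7 ctrl cortices per kb of exons (left) and per kb of gene body (right), in CPM per kb (y axes, from 0), ordered from high to low; error bars are SD over embryos. *Rif1* and *Trp53bp1* are near the top of both panels, *Lig4* is last in the left panel at 1.99 and follows them in the right at 1.20, and *Xrcc5* leads only the left panel.

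Across the 19 libraries, the 10 genes did not vary as 1 group. The highest Pearson correlations of log2(CPM + 1) among their pairs were 0.76 for *Prkdc* with *Trp53bp1* and 0.74 for *Xrcc5* with *Rif1*. *Prkdc* and *Trp53bp1* had lower means in both mutants than in ctrl, though *Trp53bp1* passed the test in dKO-E alone. *Xrcc5* and *Rif1* had their lowest means in cKO-E. The lowest correlations were -0.60 for *Xrcc5* with *Shld2* and -0.58 for *Prkdc* with *Xrcc4*. *Xrcc5* with *Xrcc6*, whose products form 1 heterodimer, was at 0.10, and *Xrcc4* with *Lig4* at 0.21. The points share genotype, batch and depth, and *Lig4* and *Xrcc6* carry few counts, so these values are a description with no p.

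**Figure D5:**
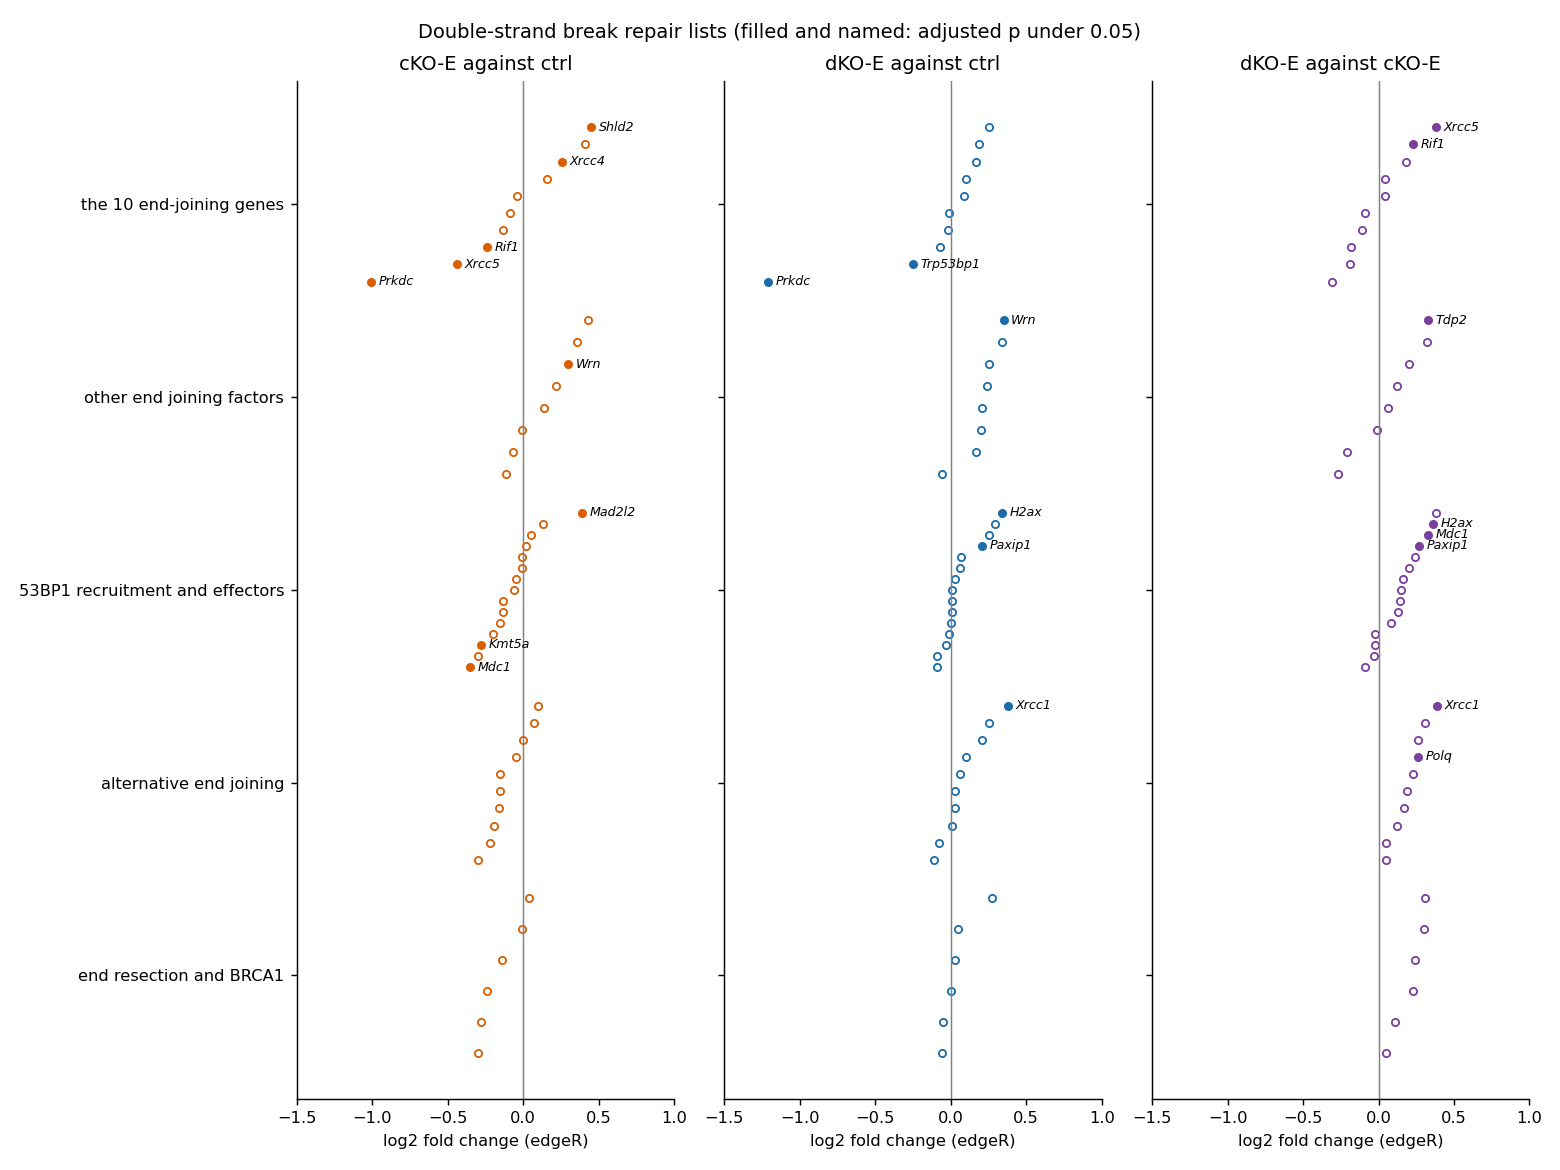
Log2 fold change (x axis) of each tested gene in 5 lists of break repair genes (rows), for cKO-E against ctrl, dKO-E against ctrl and dKO-E against cKO-E (panels). Each point is a gene, sorted within its list, and filled, named points have an adjusted p under 0.05. *Prkdc* lies apart from every other gene in both comparisons with ctrl, and the named genes between the mutants all lie above 0.

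The wider pathway was read from 4 lists of genes that share no member with the 10. Over all genes tested, 7.31% rose and 9.88% fell in cKO-E, 5.45% rose and 10% fell in dKO-E, and between the mutants dKO-E exceeded cKO-E in 5.59% and lay under it in 9.42%. In lists of this size 1 gene is a large share, and whether a count of 1 to 3 exceeds those shares was not tested. Within batch 2 alone, with 3 ctrl, 2 cKO-E and 2 dKO-E embryos, none of the differences called in these lists passed. Among 9 other end joining factors, 8 were tested (*Dntt*, the lymphoid polymerase TdT, had 0 counts in all libraries). In cKO-E 1 rose and none fell, in dKO-E 1 rose and none fell, and between the mutants 1 was higher in dKO-E and none lower, with medians of 0.18, 0.22 and 0.09. *Wrn*, the Werner syndrome helicase, rose from 59.6 ± 8.42 CPM in ctrl to 73.8 ± 7.16 in cKO-E (log2 fold change 0.30, SE 0.10, adjusted p = 0.0397) and to 75.2 ± 3.00 in dKO-E (0.35, SE 0.08, adjusted p = 0.00555). The *Wrn* value for cKO-E was 0.19 with litter as a block (adjusted p = 0.249) and 0.20 within batch 2 (adjusted p = 0.571). It lost the call without ctrl embryo A, B, C or I or cKO-E embryo A, B, C or D (adjusted p between 0.0618 and 0.105), with values between 0.25 and 0.34 over all embryos left out in turn. *Tdp2*, which removes trapped topoisomerase II from ends, was higher in dKO-E than cKO-E (0.33, SE 0.11, adjusted p = 0.0437). This call was lost with DESeq2 (adjusted p = 0.0516) and in 8 of 12 fits that left out 1 embryo (cKO-E A, B, C or D, dKO-E B, C, F or G, adjusted p between 0.0626 and 0.120), with values between 0.28 and 0.38.

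Of 17 genes with an identifier among 18 that recruit 53BP1 or act with it, 15 were tested. *Rnf8* lies inside another gene on its strand and was at 0 in all libraries. In cKO-E 1 rose and 2 fell, in dKO-E 2 rose and none fell, and 3 were higher in dKO-E than cKO-E and none lower, with medians of -0.06, 0.01 and 0.15. *Mdc1*, the scaffold that binds phosphorylated H2AX at breaks, had the pattern of *Xrcc5* and *Rif1*. It was between 79.7 and 90.9 CPM in ctrl, between 61.8 and 69.7 in cKO-E and between 75.0 and 99.2 in dKO-E, with no overlap of cKO-E with either group. On the log2 scale *Mdc1* fell by 0.35 in cKO-E (SE 0.06, adjusted p = 0.000485) and stood at -0.03 in dKO-E (adjusted p = 0.820), and dKO-E exceeded cKO-E by 0.33 (SE 0.08, adjusted p = 0.00594). *Kmt5a*, the histone H4 lysine methyltransferase whose mark precedes the one 53BP1 reads, fell in cKO-E (-0.28, SE 0.09, adjusted p = 0.0339). Within batch 1 *Kmt5a* stood at -0.18 (adjusted p = 0.245) and within batch 2 at -0.49 (adjusted p = 0.0620), and with the embryo letter as a block at -0.15 (adjusted p = 0.303). Its call was lost without ctrl embryo C, F, H or I or cKO-E embryo A, C or E (adjusted p between 0.0532 and 0.0960), with values between -0.33 and -0.22 over all embryos left out. *Mad2l2*, which encodes the shieldin subunit REV7, rose in cKO-E as *Shld2* did, from 25.1 ± 4.05 to 33.3 ± 1.29 CPM (0.39, SE 0.10, adjusted p = 0.0170). *Mad2l2* missed the threshold with litter as a block (0.38, adjusted p = 0.0988), within batch 1 (0.34, adjusted p = 0.0766), within batch 2 (0.46, adjusted p = 0.270), in 1 fit over all 19 libraries (0.39, adjusted p = 0.0696) and without cKO-E embryo C (0.36, adjusted p = 0.0517). *Shld1*, the remaining shieldin subunit tested, was at -0.06 (adjusted p = 0.791). *Paxip1* (PTIP), which binds phosphorylated 53BP1, rose in dKO-E (0.21, SE 0.06, adjusted p = 0.0225) and was higher there than in cKO-E (0.27, adjusted p = 0.0168). Within batch 2 these values of *Paxip1* were 0.05 (adjusted p = 0.868) and 0.17 (adjusted p = 0.686), and the calls were lost without ctrl embryo D (0.20, adjusted p = 0.0507) and without cKO-E embryo C (0.24, adjusted p = 0.0662). *H2ax*, the histone variant phosphorylated at breaks, rose in dKO-E (0.34, SE 0.10, adjusted p = 0.0286) and was higher there than in cKO-E (0.36, adjusted p = 0.0402). The rise of *H2ax* against ctrl was lost with litter as a block (0.28, adjusted p = 0.236), with batch as a covariate (0.32, adjusted p = 0.0518), within batch 1 (0.37, adjusted p = 0.0712), within batch 2 (0.17, adjusted p = 0.641) and without ctrl embryo C or D or dKO-E embryo B (each 0.30, adjusted p between 0.0602 and 0.0708). Its difference between the mutants was 0.20 within batch 2 (adjusted p = 0.762) and passed in 4 of 12 fits that left out 1 embryo; it was lost without cKO-E embryo A, C or E or dKO-E embryo A, B, C, E or G (adjusted p between 0.0582 and 0.127), with values between 0.30 and 0.44.

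All 10 genes of alternative end joining were tested. None passed in cKO-E by edgeR's quasi-likelihood test (3 were lower at an unadjusted p under 0.05, and 1 by each of edgeR's likelihood-ratio test and DESeq2), 1 rose in dKO-E, and 2 were higher in dKO-E than cKO-E, with medians of -0.15, 0.04 and 0.21. *Xrcc1*, the scaffold of DNA ligase III, rose in dKO-E from 46.0 ± 5.53 to 59.3 ± 8.47 CPM (0.38, SE 0.09, adjusted p = 0.0100) and was higher than in cKO-E by 0.39 (SE 0.10, adjusted p = 0.0136). Against ctrl *Xrcc1* was 0.17 within batch 2 (adjusted p = 0.656), and between the mutants it was 0.42 within batch 1 (adjusted p = 0.0590). *Polq*, the polymerase of microhomology-mediated joining, was at 81.8 ± 6.64 CPM in cKO-E and 97.7 ± 9.48 in dKO-E (0.26, SE 0.08, adjusted p = 0.0362), beside 95.7 ± 12.7 in ctrl. This *Polq* difference was lost without cKO-E embryo A, B or C or dKO-E embryo B, E or G (adjusted p between 0.0520 and 0.131, values between 0.21 and 0.29 over all embryos left out) and in the fit over all libraries (adjusted p = 0.0595). Of 6 genes of end resection and the BRCA1 complex, none passed in any comparison by edgeR's quasi-likelihood test, with medians of -0.19, 0.01 and 0.23. At an unadjusted p under 0.05, 3 were lower in cKO-E, 0 differed in dKO-E and 2 were higher in dKO-E than cKO-E; edgeR's likelihood-ratio test called 1, lower in cKO-E, and DESeq2 none. Between the mutants, all 10 tested genes of alternative end joining and all 6 of end resection lay above 0, and most did not pass the test. Over all genes tested, 6352 of 11746 lay above 0. All 10 genes of a list of cycling cell markers did too, so the shared sign is not particular to break repair.

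Some lists of cell type markers held genes that passed the test, and others held none. In bulk tissue, fewer cells of a type and less RNA per cell cannot be told apart. Over all genes tested, 17.2% passed in cKO-E, 15.5% in dKO-E and 15.0% between the mutants. The summed level of 10 genes of cycling cells was between 1750 and 2290 CPM in ctrl, between 1370 and 1810 in cKO-E and between 1590 and 2310 in dKO-E. In cKO-E 4 of these 10 fell, and 5 of 10 were higher in dKO-E than cKO-E, the direction of *Xrcc5*, *Rif1* and *Mdc1*. The summed level of 9 microglial genes was between 5.16 and 16.9 CPM in ctrl, between 25.9 and 35.0 in cKO-E and between 5.85 and 9.88 in dKO-E. For 6 interneuron genes it was between 9.15 and 83.6 CPM in ctrl, between 63.8 and 119 in cKO-E and between 28.8 and 69.3 in dKO-E, with none of the 15 genes of both lists at 0 throughout. Radial glial markers other than *Sox2*, which lies inside another gene on its strand, summed to between 1080 and 1220 CPM in ctrl, between 948 and 1220 in cKO-E and between 986 and 1160 in dKO-E. These radial glial sums overlapped in all groups. Of the 7 tested, 3 fell and 1 rose in cKO-E, and 1 fell in dKO-E. The 4 markers of intermediate progenitors summed to between 361 and 440 CPM in ctrl, between 288 and 376 in cKO-E and between 290 and 433 in dKO-E, and 2 of them fell in cKO-E. Cortical neuron markers other than *Tubb3*, at 0 for the same reason, summed to between 2740 and 4050, 3340 and 4020, and 2260 and 3200 CPM. Of these 7, 1 rose in cKO-E, 2 fell in dKO-E and 4 were lower in dKO-E than cKO-E. Of 5 endothelial and 3 erythroid genes tested, none passed in any comparison. The median summed level of endothelial genes was 47.9 CPM in ctrl, 54.1 in cKO-E and 53.3 in dKO-E. That of erythroid genes was 50.3, 66.8 and 55.2 CPM. None of 5 mesenchymal genes was tested. The part of the shifts in cell type markers in the values of the end joining genes was not tested.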

How the data were processed

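RNA of E13.5 neocortex from 19 embryos was sequenced by Click-seq, which tags each cDNA molecule. The authors trimmed reads with cutadapt 1.13, aligned them to GRCm38 with STAR 2.5.2a, removed duplicates with UMI-tools 0.5.3, and deposited whole-number counts per gene from htseq-count 0.6.1p1 (intersection-nonempty), without normalization. Strand and feature settings are not given in the sources used here. Reads not on genes, 23.3 to 31.8% of each library, were left out.

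Identifiers were matched without version to GENCODE M21 (51633 of 51912 found). Each pair of genotypes was fitted on its own, without covariates, in edgeR 4.0.16 (R 4.3.3): filterByExpr at a minimum count of 10, TMM factors, quasi-likelihood test, Benjamini-Hochberg adjustment over all genes tested. A standard error is the log2 fold change over the square root of F. The test was run on simulated counts first. Exact permutation tests used Python 3.11.15, numpy 2.4.6 and, for plots, matplotlib 3.10.9. A count of 3 equals 0.371 to 3.65 CPM, depending on the library, and counting error alone is covered by such limits.

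The genes, lists and tests were chosen with earlier results of these data known. Genes named are the 10, listed pathway genes with an adjusted p under 0.05 in any comparison, the 5 most correlated with *Prkdc*, *Ino80* and *Trp53* (1 gene chosen for the lists is not reported here); neighbours of *Prkdc* and genes named at 0 or beside a called partner were added after their values were seen. Each library is 1 embryo. Embryos came from 7 litters, and no litter held both cKO-E and dKO-E. The 7 dKO-E embryos came from 2 litters, the 7 of ctrl from 4 and the 5 of cKO-E from 5. Embryos of 1 litter are not independent, but the main fits treat them as if they were. Females and males were 4 and 3 in ctrl, 4 and 1 in cKO-E, and 2 and 5 in dKO-E. Batches are the sequencing batches of the labels. Letters that name embryos within a genotype did not pair them: deviations of same-letter embryos correlated between -0.37 and 0.14. Alternatives were edgeR's likelihood-ratio test, DESeq2 1.42.0, RLE factors, all genes with at least 1 count, covariates, blocks, single batches, 1 fit over all libraries, and left-out embryos.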

Additional observations from a re-analysis of the deposited data

Results flagged for a closer look

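Of 57 groups looked at (10 end joining genes and 9 named pathway genes in 3 genotypes), 3 held an embryo far from the others by Dixon's test at the 95% level, about as many as chance gives, which is 1 in 20 groups. *Lig4* was at 15.0 CPM in ctrl embryo F, where the other ctrl embryos were between 7.78 and 10.6. *Nhej1* was at 23.8 CPM in dKO-E embryo G, one of the libraries under 1000000 counts, where the others were between 13.0 and 17.0. *Rif1* was at 273 CPM in dKO-E embryo B, where the others were between 216 and 240.

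A difference between the mutants passed edgeR's quasi-likelihood test for 2 of the 10 genes and 6 named pathway genes, all higher in dKO-E. The pathway genes were named because they passed in at least 1 comparison. Of all tested genes in the 4 lists, 1 of 8, 3 of 15, 2 of 10 and 0 of 6 were higher in dKO-E, and none was lower. Over all 11746 genes tested, 5.59% were higher in dKO-E and 9.42% lower. The log2 fold changes were 0.38 for *Xrcc5* (adjusted p = 0.00332), 0.23 for *Rif1* (adjusted p = 0.0378), 0.33 for *Tdp2* (adjusted p = 0.0437), 0.27 for *Paxip1* (adjusted p = 0.0168) and 0.33 for *Mdc1* (adjusted p = 0.00594). They were 0.36 for *H2ax* (adjusted p = 0.0402), 0.26 for *Polq* (adjusted p = 0.0362) and 0.39 for *Xrcc1* (adjusted p = 0.0136). Of 12 fits that left out 1 embryo each, 4 passed for *Tdp2*, 4 for *H2ax*, 5 for *Rif1* and 6 for *Polq*, and none of the 8 differences passed within batch 2 alone. No litter held embryos of both mutants, so litter and genotype cannot be told apart in these 8 values.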

How the results depend on the processing

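The fall of *Prkdc* in both mutants passed under every alternative run, with log2 fold changes between -1.13 and -0.95 in cKO-E and between -1.40 and -1.14 in dKO-E. With an adjusted p under 0.001 the 10 genes gave 2 calls in cKO-E, 1 in dKO-E and 0 between the mutants. Over all genes tested, 3.38%, 2.58% and 3.13% passed it. With litter as a block cKO-E had 2 calls and dKO-E 1. Over all genes tested, calls went from 2004 to 1475 in cKO-E and from 1759 to 585 in dKO-E with this block. It was not run between the mutants, which share no litter. Within sequencing batch 1 the 10 genes gave 1 call in dKO-E and 0 between the mutants, beside 1413 and 1253 over all genes tested. Batch 2 alone was chosen after seeing the data. Within it they gave 1 call in cKO-E, 1 in dKO-E and 0 between the mutants, beside 606, 356 and 305. Between the mutants the 10 genes gave 1 call with sequencing batch as a covariate and 1 without libraries under 1000000 counts. Over all genes tested these fits gave 1649 and 1378 calls, beside 1763 in the main fit. With each embryo left out in turn it was 4 to 6 in cKO-E, 2 in dKO-E each time, and 1 to 2 between the mutants. The letter as a block gave 5 in cKO-E, 1 in dKO-E and 1 between the mutants, beside 1792, 1018 and 1416 over all genes. The letters did not pair embryos.

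Genes past 0.05 over all genes tested moved by over 1.5 times from 1759 in dKO-E to 585 with the litter block and 1018 with the letter block, within batch 2 from 2004 to 606 (cKO-E), from 1759 to 356 (dKO-E) and from 1763 to 305 (between the mutants), and without cKO-E embryo C from 1763 to 1135 (between the mutants).

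Changes of sign concerned values near 0 that passed no test. Against ctrl in cKO-E, *Xrcc6* was at 0.10 with the litter block and at 0.01 both within batch 1 and without libraries under 1000000 counts, and between -0.13 and 0.04 with an embryo left out, and *Nhej1* was at 0.13 with the replicate block and 0.10 within batch 1. In dKO-E, *Xrcc6* was at 0.08 with batch as a covariate, 0.02 with the litter block, 0.14 with the replicate block, 0.08 within batch 1 and 0.06 within batch 2, and between -0.07 and 0.08 with an embryo left out. *Rif1* was at 0.01 with sex as a covariate, 0.05 with the litter block and 0.04 within batch 1, and between -0.06 and 0.01 with an embryo left out. *Dclre1c* was at -0.01 with the litter block, and within batch 2 *Xrcc5* was at 0.09, *Lig4* at -0.22 and *Nhej1* at -0.01. Between the mutants, *Dclre1c* was at -0.05 with batch as a covariate, -0.08 with sex as a covariate and -0.14 within batch 1, and between -0.05 and 0.09 with an embryo left out. *Xrcc6* was at -0.02 with sex as a covariate, -0.05 with the replicate block and -0.04 without libraries under 1000000 counts, and between -0.02 and 0.13 with an embryo left out, and *Xrcc4* was at 0.04 within batch 2. The cause of these changes was not tested.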
